A study of Mus musculus with 13 samples.

Results

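Hepcidin and the genes that sense, carry, store and export iron were followed in mouse liver. The members were 10 genes, chosen by name: Hamp, Hamp2, Hfe, Hfe2, Tfr2, Tmprss6, Trf, Tfrc, Slc40a1 and Fth1. They were read by 13 probes, and all 10 genes were among the 19517 genes or transcripts that passed the filter on dim probes. The member genes passed it through probes well above background on all 13 arrays, so none entered through one group alone.

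The samples were livers of female C57BL6 mice aged 12 weeks, hybridized as 13 single-colour (Cy3) Agilent arrays. The mice written here as HFHS vehicle (n = 5) had the diet labelled HFHS, which the series text calls high fat, with vehicle. The ST vehicle group (n = 3) had the standard diet (ST) with vehicle, and the ST pollutants group (n = 5) had the ST diet plus 4 mixed pollutants, whose names the sources used here do not give. No genotype or further treatment is given for any group. The series text can also be read as placing the mixture in the high-fat diet; the sample labels were followed. Values below are log2 signals minus the 75th percentile of the array, so a value above 0 belongs to the brighter probes of that array. Levels are compared between samples, never between probes. Calls were made by limma where the Benjamini-Hochberg p, adjusted across all 19517 genes, was under 0.05. Adjusted p-values below are from that model unless another test is named.

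Hepatocytes release the peptide hormone hepcidin, which binds the iron exporter ferroportin and has it degraded, so that less iron enters the plasma. Transcription of the hepcidin gene is driven mainly by bone morphogenetic proteins (BMP), made by liver endothelial cells, through receptors and SMAD factors on hepatocytes, and in inflammation by interleukin 6 through STAT3. Hemojuvelin, HFE and transferrin receptor 2 raise the BMP signal, and the protease matriptase-2 lowers it by cutting hemojuvelin. Within cells, ferritin stores iron and transferrin receptor 1 takes it up.

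The mouse has a pair of adjacent hepcidin genes. Hamp encodes the hormone that controls iron, whereas its copy Hamp2 is not thought to do so. Because the pair is so alike, the sequences that tell the probes apart are shown first. The Hamp probe lies at chr7:31727490-31727549 and the Hamp2 probe at chr7:31707520-31707579 (mm9, minus strand, last coding part of each gene). Both are printed up to the stop codon, 5′ to 3′, with capitals where they differ from one another.
Hamp probe: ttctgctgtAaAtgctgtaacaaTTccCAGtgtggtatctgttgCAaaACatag
Hamp2 probe: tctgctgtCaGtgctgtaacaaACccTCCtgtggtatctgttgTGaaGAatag
Over the 53 bases that align, 42 are identical and 11 differ. How far each probe also reads the other transcript was not tested.

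The promoters differ at a place of known use. The windows below hold 60 bases upstream of each gene (RefSeq, GRCm38.p6), both on the minus strand. For Hamp (chr7:30944099-30944158) they run from 129 to 70 bases before the start. For Hamp2 (chr7:30924248-30924307) they run from 126 to 67 bases before it. Capitals mark GGCGCC, a letter pattern of BMP-responsive elements, or the aligned bases in Hamp2, and then TTCNNNGAA, a pattern of STAT sites.
Hamp promoter: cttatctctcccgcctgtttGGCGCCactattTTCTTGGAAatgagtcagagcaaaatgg
Hamp2 promoter: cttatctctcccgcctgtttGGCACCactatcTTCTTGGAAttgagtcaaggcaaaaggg
The windows share 54 of 60 bases. Counted from 1 at the 5′ end of the window, Hamp2 carries G24A inside the first pattern, and no difference falls inside the second. Both patterns read the same on either strand and do not overlap each other here. In the 250 bases before the start, 9.59% of all 32851 promoter entries hold GGCGCC and 7.02% hold TTCNNNGAA. Of the members, 6 had a promoter entry. Besides Hamp, GGCGCC was found before 1 of the starts of Tfrc, and TTCNNNGAA was found before Hamp and Hamp2 alone. A match is a description of these letters and not of binding.

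Hamp was lower on all 10 arrays of the HFHS vehicle and ST pollutants groups than on any ST vehicle array. It stood at 6.32, 6.30 and 6.23 on the ST vehicle arrays. On the HFHS vehicle arrays it stood at 4.64, 5.29, 3.24, 5.58 and 5.84. On the ST pollutants arrays it stood at 4.78, 3.13, 4.97, 4.66 and 4.10. The 3 ST vehicle values lay close together (SD 0.05), while the other groups spread widely (SD 1.04 and 0.74), and HFHS vehicle replicate 3 and ST pollutants replicate 2 were the lowest of their groups.

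The size of the Hamp difference was large and its error was large too. With HFHS vehicle it was lower by 1.37 ± 0.54 (SE) on the log2 scale, a 2.58-fold difference with a 95% interval from -2.54 to -0.20, and was not called (adjusted p = 0.315). With ST pollutants it was lower by 1.96 ± 0.54, a 3.88-fold difference with an interval from -3.13 to -0.79, and was not called either (adjusted p = 0.124). Both comparisons share the 3 ST vehicle arrays. Of all genes, 1.47% had all 10 other arrays below the 3 ST vehicle arrays. The model gives all groups a common spread. Without HFHS vehicle replicate 3, the array lowest in Hamp in its group, Hamp passed the threshold with ST pollutants (adjusted p = 0.0469). That array is in neither group of this comparison and enters it only through the common spread. It was the only 1 of 26 alternatives in which Hamp was called with ST pollutants (adjusted p from 0.0469 to 0.322). HFHS vehicle and ST pollutants overlapped in Hamp and differed by 0.59 ± 0.47 (adjusted p = 0.600).

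Slides were told apart by the barcode of each array, and a comparison is possible inside each of the 3 slides that hold all groups. Hamp was lower with HFHS vehicle than with ST vehicle by log2 differences of -1.68, -1.02 and -0.40, and lower with ST pollutants by -1.54, -3.17 and -2.13. Since neither group overlapped ST vehicle in Hamp, the direction on slides 1, 2 and 5 was fixed beforehand. Only the sizes add to what is given above. Between HFHS vehicle and ST pollutants the sign changed from slide to slide, from -1.73 on slide 3 to 2.16 on slide 2.

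In Hamp2 the groups overlapped. It stood at 7.37, 7.26 and 5.94 on the ST vehicle arrays, at 6.31, 7.25, 5.92, 7.0 and 7.17 on the HFHS vehicle arrays, and at 5.89, 6.38, 6.73, 6.68 and 5.11 on the ST pollutants arrays. ST vehicle replicate 3 was the low one of its group. The differences from ST vehicle were -0.13 ± 0.45 with HFHS vehicle (adjusted p = 0.986) and -0.70 ± 0.45 with ST pollutants (adjusted p = 0.630). Their 95% intervals, from -1.1 to 0.84 and from -1.67 to 0.27, still include sizeable changes. Inside slides 1, 2 and 5 Hamp2 was lower with ST pollutants than with ST vehicle by log2 differences of -1.48, -0.89 and -0.84, whereas with HFHS vehicle the differences were -1.06, -0.01 and 1.22.

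**Figure D1:**
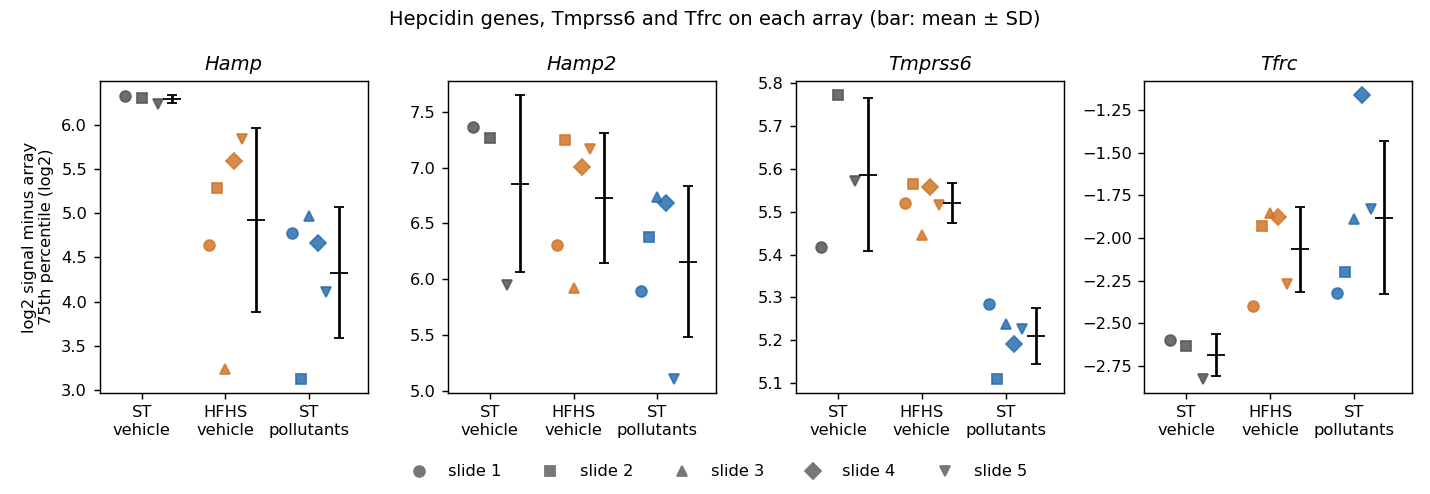
Scaled log2 signal of Hamp, Hamp2, Tmprss6 and Tfrc on each of the 13 arrays, with 1 marker shape per slide and the mean ± SD of each group as a bar; each panel has its own scale. Hamp was lower and Tfrc higher on all 10 HFHS vehicle and ST pollutants arrays than on the 3 ST vehicle arrays, and Tmprss6 was lowest on the 5 ST pollutants arrays.

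Across the 10 members, 0 were called with HFHS vehicle and 0 with ST pollutants against ST vehicle in limma, against 0.687% and 0.984% of all genes. At an unadjusted p under 0.05 there were 3 members with HFHS vehicle (Hamp, Hfe2 and Tfrc) and 4 with ST pollutants (the same 3 and Tmprss6), against 12.1% of all genes in each. With the authors' deposited values in place of the scanner signals, 0 members were called with HFHS vehicle and 1 with ST pollutants, Tmprss6. Between HFHS vehicle and ST pollutants 1 member was called, Tmprss6, against 3.87% of all genes in either direction and 1.57% in its own, higher with HFHS vehicle. The median log2 difference of the members was -0.07 with HFHS vehicle and -0.12 with ST pollutants, against -0.02 and -0.0089 over all genes. Groups did not overlap for 2 members with HFHS vehicle (9.15% of all genes) and for 4 with ST pollutants (8.32% of all genes), and between HFHS vehicle and ST pollutants for 1 (6.93% of all genes).

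**Figure D2:**
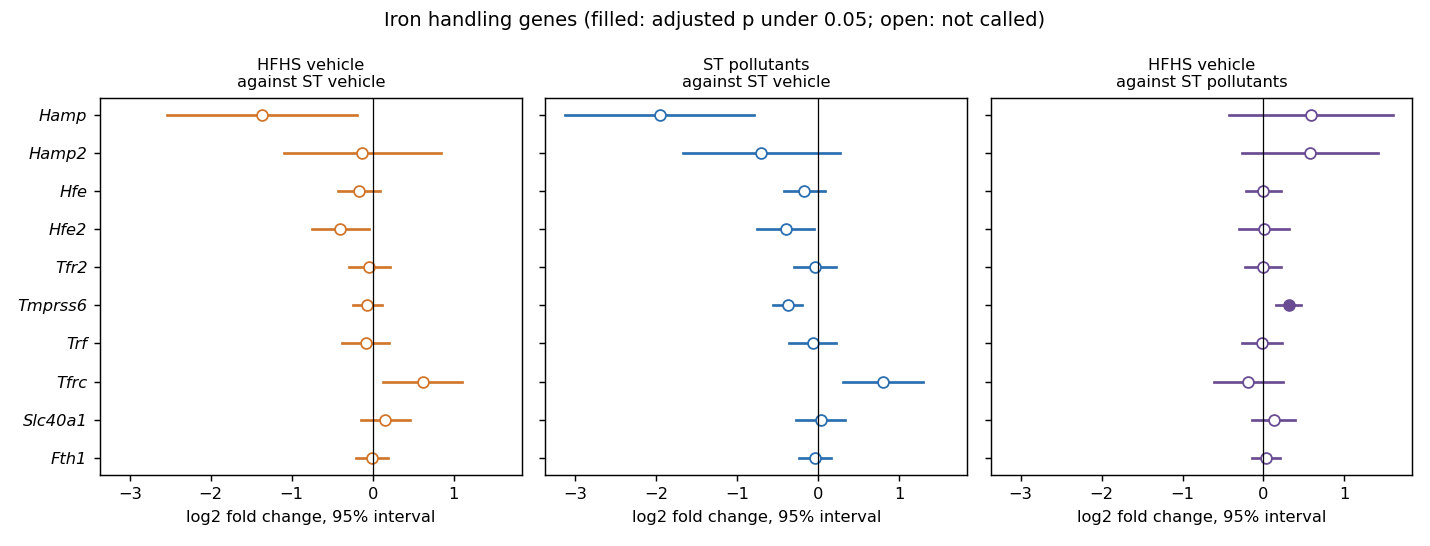
Log2 fold change of the 10 iron handling genes with its 95% interval in the 3 comparisons; filled circles were called at an adjusted p under 0.05 and open circles were not. Hamp has the largest differences and the widest intervals next to Hamp2, while Fth1, Tfr2, Trf and Slc40a1 lie near 0, and the 1 filled circle is Tmprss6.

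Hfe2 encodes hemojuvelin, the BMP co-receptor. It stood at 0.84, 0.94 and 0.55 with ST vehicle, at 0.44, 0.71, 0.52, 0.16 and 0.06 with HFHS vehicle, and at 0.52, 0.37, 0.49, 0.47 and 0.03 with ST pollutants. All 5 ST pollutants arrays lay below the 3 ST vehicle arrays, narrowly, and the HFHS vehicle group overlapped through replicate 2. The differences from ST vehicle were -0.40 ± 0.16 in both comparisons and were not called (adjusted p = 0.337 with HFHS vehicle and 0.327 with ST pollutants).

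Hfe, whose product links iron-loaded transferrin to the hepcidin signal, overlapped in all groups. It ranged from 2.11 to 2.35 with ST vehicle, from 1.86 to 2.25 with HFHS vehicle and from 1.87 to 2.27 with ST pollutants, and differed from ST vehicle by -0.17 ± 0.12 in both comparisons (adjusted p = 0.689 and 0.675). From array to array it followed Hamp, with Pearson r = 0.82 over 13 arrays and r = 0.82 after the group means were taken out; the arrays share slides and scaling, and r is given as a description. HFHS vehicle replicate 3 and ST pollutants replicate 2, the arrays lowest in Hamp, were also lowest in Hfe in their groups (1.86 and 1.87).

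Tfr2, the hepatocyte's sensor of iron-loaded transferrin, was level. It ranged from 5.64 to 6.09 with ST vehicle, from 5.61 to 6.02 with HFHS vehicle and from 5.70 to 6.01 with ST pollutants. Its 95% intervals against ST vehicle, from -0.30 to 0.21 and from -0.29 to 0.22, are narrow beside those of Hamp.

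Tmprss6 encodes matriptase-2, the protease that restrains hepcidin, and was lower in the ST pollutants group than on every other array. It stood at 5.29, 5.11, 5.24, 5.19 and 5.23 with ST pollutants. With HFHS vehicle it stood at 5.52, 5.57, 5.45, 5.56 and 5.52, and with ST vehicle at 5.42, 5.77 and 5.57. Of all genes, 1.02% had the 5 ST pollutants arrays below the other 8. The change was small but the groups were tight: Tmprss6 was higher by 0.31 ± 0.07 (1.24-fold) with HFHS vehicle than with ST pollutants and was called (adjusted p = 0.0360). Inside the 5 slides the difference ran from 0.21 to 0.45, with its sign fixed beforehand by the lack of overlap.

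Against ST vehicle, Tmprss6 differed by -0.38 ± 0.08 with ST pollutants and missed the threshold (adjusted p = 0.0582). Inside slides 1, 2 and 5 the differences were -0.13, -0.66 and -0.35, again fixed in sign by the lack of overlap. With HFHS vehicle it differed from ST vehicle by -0.07 ± 0.08 (adjusted p = 0.910). The call between HFHS vehicle and ST pollutants was lost without any one of the 5 HFHS vehicle arrays or without ST pollutants replicate 2, 3, 4 or 5 (adjusted p from 0.0535 to 0.0936), while the difference stayed between 0.29 and 0.33. It was also lost with normexp background correction, where the difference was 0.19 (adjusted p = 0.472), and with slide as a block (adjusted p = 0.0675).

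Genes of the BMP and SMAD pathway were read from a list of 22, of which 21 were measured; Bambi was not tested. With HFHS vehicle against ST vehicle 4 of 21 fell and 0 rose, and with ST pollutants 5 of 21 fell and 0 rose. Of all genes, 0.451% and 0.441% were called lower in these comparisons. The members, this list and those below were chosen with earlier results of these data known. The shares beside their counts are therefore a description and not a test. Those that fell were Id1, Id3, Atoh8 and Smad7 in both comparisons, and Id2 with ST pollutants. All 5 are known targets that BMP signalling switches on in hepatocytes: Id1, Id2 and Id3 encode inhibitors of helix-loop-helix factors, Atoh8 a helix-loop-helix factor, and Smad7 a feedback inhibitor of the receptors. The median of the list was -0.18 with HFHS vehicle and 0.00087 with ST pollutants, against -0.02 and -0.0089 over all genes.

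Id1 stood at 1.96, 1.71 and 1.28 with ST vehicle, at -0.49, -0.22, -0.08, -0.41 and -0.04 with HFHS vehicle, and at 0.99, 0.22, 0.15, -0.05 and 0.03 with ST pollutants. It fell by 1.90 ± 0.23 with HFHS vehicle (3.72-fold, adjusted p = 0.00705) and by 1.38 ± 0.23 with ST pollutants (2.6-fold, adjusted p = 0.0199), and neither group overlapped ST vehicle. Id3 stood at 3.05, 2.99 and 3.37 with ST vehicle, at 2.19, 2.41, 2.14, 1.90 and 1.94 with HFHS vehicle, and at 2.17, 1.65, 2.02, 1.90 and 1.80 with ST pollutants. It fell by 1.02 ± 0.15 (adjusted p = 0.0115) and by 1.23 ± 0.15 (adjusted p = 0.00381). The 3 ST vehicle arrays were thus highest in both genes.

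Atoh8 stood at 0.13, -0.45 and -0.35 with ST vehicle, at -1.79, -1.73, -1.95, -1.25 and -1.63 with HFHS vehicle, and at -1.0, -1.61, -1.34, -1.31 and -1.17 with ST pollutants. It fell by 1.44 ± 0.18 (adjusted p = 0.00820) and by 1.06 ± 0.18 (adjusted p = 0.0199). Smad7 stood between -0.69 and -0.51 with ST vehicle, between -2.34 and -1.63 with HFHS vehicle and between -2.19 and -1.1 with ST pollutants. It fell by 1.35 ± 0.21 (adjusted p = 0.0147) and by 1.13 ± 0.21 (adjusted p = 0.0294). Id2 stood at 3.45, 3.68 and 3.55 with ST vehicle and at 3.2, 1.97, 1.91, 2.01 and 2.37 with ST pollutants, where it fell by 1.27 ± 0.24 (adjusted p = 0.0307). ST pollutants replicate 1 lay near the ST vehicle arrays. With HFHS vehicle Id2 stood between 2.41 and 2.58, lower by 1.1 ± 0.24 than with ST vehicle and just missed the threshold (adjusted p = 0.0634). HFHS vehicle and ST pollutants did not differ by a call in any of the 21 genes (6 had an unadjusted p under 0.05 in limma).

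In these targets no HFHS vehicle or ST pollutants array reached the ST vehicle range. Their direction inside each slide that holds all groups was therefore fixed beforehand, and only the sizes are new. Id1 was lower by -2.45, -1.93 and -1.32 with HFHS vehicle and by -0.97, -1.49 and -1.25 with ST pollutants on slides 1, 2 and 5. Atoh8 was lower by -1.91, -1.28 and -1.28, and by -1.13, -1.16 and -0.82.

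The calls rest on few ST vehicle arrays. In the alternatives in which a single array was left out, Id1 and Atoh8 with HFHS vehicle and Id3 with ST pollutants were called in 13 of 13, with adjusted p up to 0.0443 for Id1 and Atoh8 and 0.0266 for Id3. Without ST vehicle replicate 1 or 3 the calls of Id3 and Smad7 with HFHS vehicle (adjusted p up to 0.0542 and 0.0757) and of Atoh8 with ST pollutants (up to 0.0831) were lost, and without replicate 1 or 2 that of Id1 with ST pollutants (up to 0.0827). With ST pollutants the call of Smad7 was lost without any ST vehicle array or ST pollutants replicate 2, 3 or 4 (up to 0.133), and that of Id2 without any ST vehicle array, ST pollutants replicate 2, 3, 4 or 5, or HFHS vehicle replicate 2 (up to 0.133). With slide as a block the calls of Id3 with HFHS vehicle (adjusted p = 0.0575) and of Id1 and Id2 with ST pollutants (adjusted p = 0.0678 and 0.104) were lost. Without the arrays of slide 1 only 1 of all genes was called with HFHS vehicle and 3 with ST pollutants. At most that many of these target calls can have held there. Over all alternatives with HFHS vehicle, the calls held in 24 of 25 for Id1, 22 of 25 for Atoh8, 18 of 25 for Id3 and 19 of 24 for Smad7. With ST pollutants they held in 24 of 25 for Id3, 20 of 25 for Atoh8, 19 of 25 for Id1, 12 of 24 for Smad7 and 11 of 25 for Id2. Each of these called differences stayed negative in every alternative run.

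Apart from Smad7, the ligands, receptors and SMAD factors of the same list were not called. Bmp6, the main ligand for hepcidin, ranged from -2.65 to -1.88 with ST vehicle, from -2.73 to -2.25 with HFHS vehicle and from -2.25 to -1.75 with ST pollutants. It differed from ST vehicle by -0.18 ± 0.18 with HFHS vehicle (adjusted p = 0.844) and by 0.34 ± 0.18 with ST pollutants (adjusted p = 0.507). Between HFHS vehicle and ST pollutants it differed by -0.52 ± 0.15 with groups that just missed overlap (adjusted p = 0.0884). Bmp2, the other endothelial ligand, differed by -0.13 ± 0.10 and 0.18 ± 0.10 from ST vehicle, and by -0.31 ± 0.09 between HFHS vehicle and ST pollutants (adjusted p = 0.0806). Acvr2b, a type II receptor, differed there by -0.60 ± 0.17 (adjusted p = 0.0692). The receptor Bmpr1a and the factors Smad1, Smad4 and Smad5 had differences from ST vehicle between -0.30 and 0.09. Erfe, the erythroid hormone that lowers hepcidin, was dim and variable, with differences of 0.17 ± 0.45 and 0.44 ± 0.45.

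**Figure D3:**
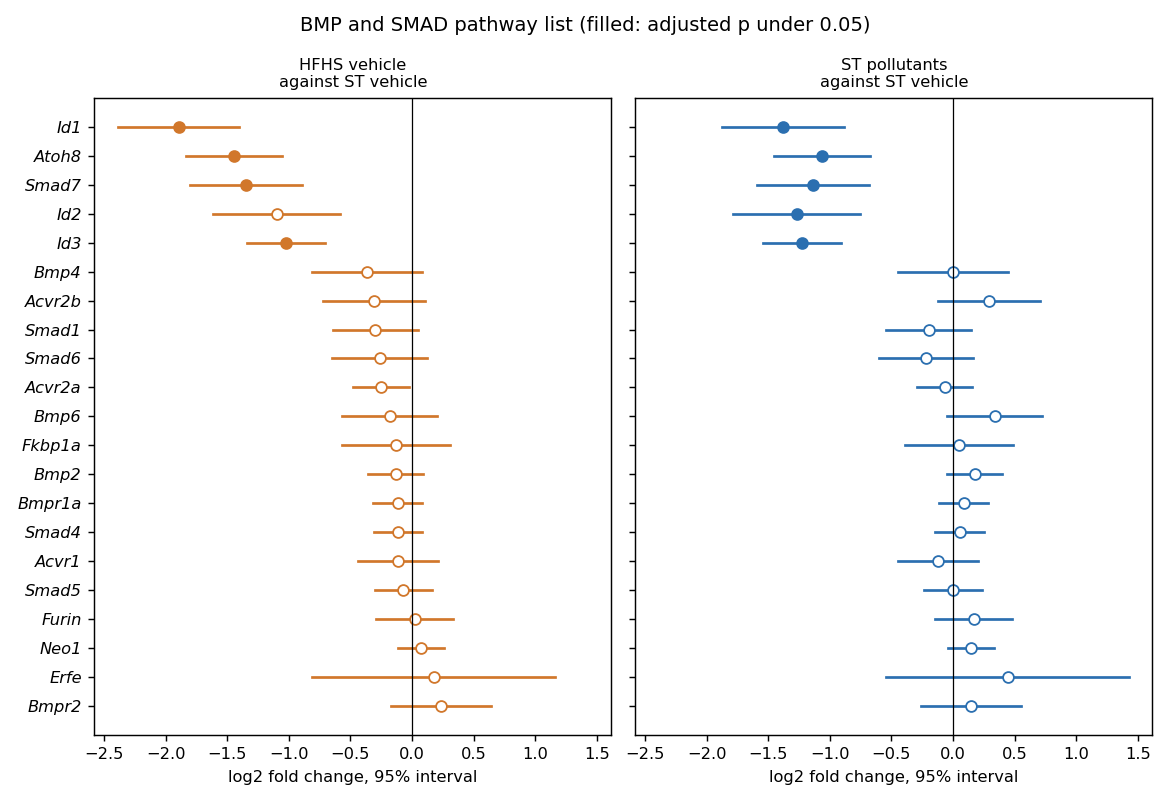
Log2 fold change against ST vehicle, with 95% interval, of the 21 measured genes of the BMP and SMAD list for HFHS vehicle (left) and ST pollutants (right), in the order of the HFHS vehicle values; filled circles were called. The targets Id1, Atoh8, Smad7, Id2 and Id3 stand apart below 0, and the ligands, receptors and other SMAD factors lie closer to 0.

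The interleukin 6 and STAT3 list, the inflammatory input to hepcidin, held 16 genes, all measured. With HFHS vehicle 0 of 16 were called in limma (4 at an unadjusted p under 0.05). Fga, a fibrinogen chain, differed by -0.67 ± 0.15 (adjusted p = 0.0677) and Socs3, the feedback inhibitor of STAT3, by -0.80 ± 0.19 (adjusted p = 0.0916). A second Fga probe gave -0.51 ± 0.18. With ST pollutants 1 of 16 rose (0.543% of all genes were called higher). Il6ra, the interleukin 6 receptor, stood at 4.04, 4.24, 4.00, 4.26 and 4.17, against 3.50, 3.46 and 3.27 with ST vehicle and 3.22, 3.24, 3.65, 3.56 and 3.25 with HFHS vehicle. It rose by 0.73 ± 0.12 with ST pollutants (1.66-fold, adjusted p = 0.0197), a call lost without any 1 of the 3 ST vehicle arrays (adjusted p up to 0.0915). It was lower by 0.76 ± 0.10 with HFHS vehicle than with ST pollutants (adjusted p = 0.00586) and was the only 1 of the 16 called there. The acute-phase gene Saa1 was high on ST pollutants replicate 1 alone (7.14, against 2.75 to 4.79 on the other 12 arrays), and that array's Hamp value, 4.78, was inside the range of its group.

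Trf encodes transferrin, the plasma carrier of iron made by hepatocytes, and was level. Its brighter probe ranged from 8.51 to 8.86 with ST vehicle, from 8.40 to 8.83 with HFHS vehicle and from 8.41 to 8.79 with ST pollutants. The differences from ST vehicle were -0.08 ± 0.13 and -0.07 ± 0.13 (adjusted p = 0.950 and 0.943), and the second probe gave -0.15 ± 0.17 and -0.08 ± 0.17.

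Tfrc, transferrin receptor 1, through which cells take up transferrin iron, was higher on all 10 HFHS vehicle and ST pollutants arrays than on the ST vehicle arrays. It stood at -2.60, -2.63 and -2.82 with ST vehicle, at -2.40, -1.93, -1.85, -1.88 and -2.27 with HFHS vehicle, and at -2.32, -2.20, -1.89, -1.16 and -1.83 with ST pollutants. Of all genes, 0.979% had all 10 arrays above the 3. The differences were 0.62 ± 0.23 with HFHS vehicle (adjusted p = 0.275) and 0.80 ± 0.23 with ST pollutants (adjusted p = 0.134), and neither was called. Inside slides 1, 2 and 5 they were 0.20, 0.70 and 0.55 with HFHS vehicle, and 0.28, 0.44 and 0.99 with ST pollutants. Their sign was fixed beforehand by the lack of overlap.

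A second Tfrc probe gave 0.54 ± 0.28 with HFHS vehicle, without overlap, and 0.68 ± 0.28 with ST pollutants, where ST pollutants replicate 1 (-4.20) lay below the ST vehicle arrays. The remaining Tfrc probe was not well above background on any array. Erythroid precursors express much Tfrc. The mean of the 5 measured genes of an erythroid marker list of 8 ranged from 1.05 to 1.35 with ST vehicle, from 1.26 to 1.76 with HFHS vehicle and from 1.45 to 1.92 with ST pollutants, so that HFHS vehicle overlapped ST vehicle. Differences from ST vehicle were above 0 for 5 of 5 in both comparisons, and in limma 0 of 5 were called (1 with HFHS vehicle and 3 with ST pollutants at an unadjusted p under 0.05). Hba-a1, Hbb-b1, Alas2, Slc4a1 and Klf1 were well above background on all 13 arrays, whereas Ahsp was so on 6. The part of these cells in the Tfrc values was not tested. In a bulk sample more cells of a type and more RNA per cell cannot be told apart.

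Slc40a1 encodes ferroportin, the exporter that hepcidin removes, and its transcript did not separate the groups. It stood at 3.38, 3.18 and 3.41 with ST vehicle, at 3.52, 3.56, 3.43, 3.39 and 3.48 with HFHS vehicle, and at 3.59, 2.90, 3.51, 3.27 and 3.50 with ST pollutants. Against ST vehicle the differences were 0.16 ± 0.14 (adjusted p = 0.808) and 0.03 ± 0.14 (adjusted p = 0.981), with 95% intervals from -0.14 to 0.46 and from -0.27 to 0.33. ST pollutants replicate 2, lowest in Hamp, was also lowest in Slc40a1. Hepcidin acts on the ferroportin protein, which these arrays do not measure.

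Fth1, the heavy chain of ferritin, was the steadiest member. It ranged from 7.51 to 7.65 with ST vehicle, from 7.39 to 7.79 with HFHS vehicle and from 7.47 to 7.58 with ST pollutants. Its 95% intervals against ST vehicle ran from -0.20 to 0.19 with HFHS vehicle and from -0.23 to 0.16 with ST pollutants. Cells set ferritin mostly at translation, through iron regulatory proteins that bind its mRNA, and a level mRNA therefore does not give the amount of the protein. Those same proteins stabilize the Tfrc mRNA.

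**Figure D4:**
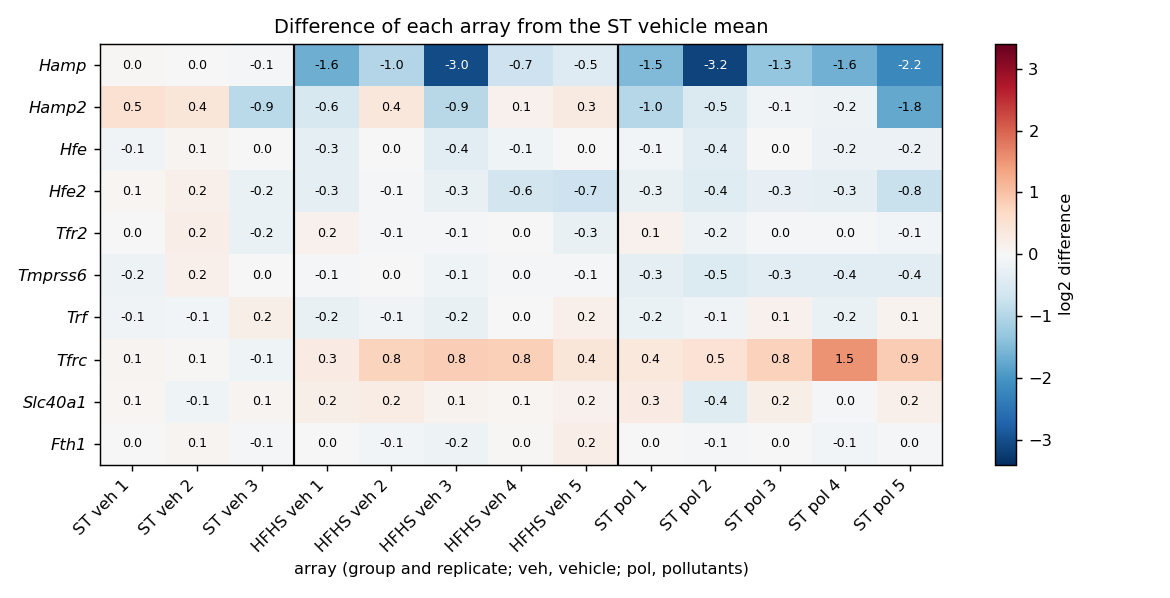
Difference of each of the 13 arrays from the ST vehicle mean for the 10 members, in log2 units, printed in each cell and shown by colour (blue lower, red higher). Hamp is below and Tfrc above the ST vehicle mean on every HFHS vehicle and ST pollutants array, though some of these cells are pale. The Fth1, Trf, Tfr2 and Slc40a1 rows are pale throughout.

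Other genes of iron transport and storage were read from a list of 20, of which 17 were measured and Cybrd1, Hephl1 and Ftmt were not tested. In limma 0 of 17 were called in each of the 3 comparisons, with 2, 5 and 3 at an unadjusted p under 0.05 for HFHS vehicle and ST pollutants against ST vehicle and for HFHS vehicle against ST pollutants. With ST pollutants Slc25a37, the mitochondrial iron importer mitoferrin 1, which is abundant in erythroid cells, differed from ST vehicle by 0.59 ± 0.14 without overlap (adjusted p = 0.0844). Its second probe gave 0.36 ± 0.13. Steap3, a ferrireductase of the transferrin cycle, differed by -0.57 ± 0.16 without overlap (adjusted p = 0.128), and its second probe by -0.31 ± 0.20. With HFHS vehicle the smallest p was that of Slc11a2, the importer DMT1, at 0.39 ± 0.13 (adjusted p = 0.226), followed by Slc25a37 at 0.32 ± 0.14 (adjusted p = 0.412). A second Slc11a2 probe gave -0.03 ± 0.26. Between HFHS vehicle and ST pollutants they were Steap3, at 0.48 ± 0.14 (adjusted p = 0.0772), and its relative Steap2, at -0.53 ± 0.15 (adjusted p = 0.0795). The second Steap3 probe gave 0.10 ± 0.17 there. Probes of Cp, the plasma ferroxidase ceruloplasmin, disagreed: the brighter one, used here, differed by -0.02 ± 0.09 between HFHS vehicle and ST pollutants, and a dimmer one was lower with HFHS vehicle by 0.82 ± 0.13 (limma over all kept probes, adjusted p = 0.00730). Against ST vehicle the dimmer probe differed by -0.68 ± 0.15 with HFHS vehicle (adjusted p = 0.0685) and the brighter one by -0.21 ± 0.11. Ftl1, the light chain of ferritin, differed from ST vehicle by -0.14 ± 0.16 and -0.03 ± 0.16.

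The list of iron regulatory proteins and oxygen sensors held 9 genes, all measured. In limma 0 of 9 were called against ST vehicle in either comparison (1 with HFHS vehicle and 2 with ST pollutants at an unadjusted p under 0.05), and 1 of 9 was called between HFHS vehicle and ST pollutants, lower with HFHS vehicle (2.30% of all genes). Ireb2, iron regulatory protein 2, stood at -3.22, -2.96, -3.04, -3.25 and -2.84 with HFHS vehicle, at -2.24, -2.52, -2.54, -2.61 and -2.58 with ST pollutants, and at -2.66, -2.51 and -2.87 with ST vehicle. It was lower by 0.56 ± 0.11 with HFHS vehicle than with ST pollutants (1.48-fold, adjusted p = 0.0131). With normexp background correction the difference turned to 0.07 and was not called (adjusted p = 0.884), and with the authors' deposited values it was -0.26 (adjusted p = 0.154). Against ST vehicle Ireb2 differed by -0.38 ± 0.12 with HFHS vehicle (adjusted p = 0.218). Egln1, an oxygen-sensing hydroxylase, differed there by 0.33 ± 0.16 (adjusted p = 0.437). With ST pollutants the smallest p were those of Arnt, the partner of the hypoxia-inducible factors, at 0.30 ± 0.12 (adjusted p = 0.344; -0.05 ± 0.20 at a second probe), and Egln3, another oxygen-sensing hydroxylase, at -0.23 ± 0.10 (adjusted p = 0.373).

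Of 11 genes of heme synthesis, breakdown and scavenging, all measured, Alas1 rose in both comparisons with ST vehicle and the other 10 were not called, against 0.236% of all genes called higher with HFHS vehicle and 0.543% with ST pollutants. Alas1 encodes the first and limiting enzyme of heme synthesis in liver. It stood at 5.27, 5.90 and 5.41 with ST vehicle, at 6.54, 7.11, 6.89, 7.04 and 7.45 with HFHS vehicle, and at 7.51, 7.26, 7.30, 7.17 and 7.78 with ST pollutants. Neither group overlapped ST vehicle, and the rises were 1.48 ± 0.21 (adjusted p = 0.0115) and 1.88 ± 0.21 (adjusted p = 0.00358). The former call was lost without ST vehicle replicate 1 or 3 (adjusted p up to 0.0597). A second Alas1 probe rose by 1.06 ± 0.17 and 1.36 ± 0.17. Hmox1, the heme oxygenase that frees iron from heme, differed from ST vehicle by 0.05 ± 0.16 and -0.05 ± 0.16, and the scavengers Hp and Hpx by -0.07 to 0.21.

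Over the 13 arrays, the genes whose values followed Hamp most closely were Dlg1 (r = 0.91), Flt3l (r = 0.86), Atp5g1 (r = 0.86), Gm10318 (r = 0.86) and Ms4a4d (r = 0.84). With the group means taken out they were Crcp (r = 0.87), Col5a3 (r = 0.86), Nfib (r = 0.86), Abcg4 (r = 0.84) and Atp5g1 (r = 0.84), so that Atp5g1 was in both. These are the highest of all genes with a symbol, they share arrays and slides, and none was called against ST vehicle in either comparison. Among the BMP targets, r with Hamp over all arrays was 0.71 for Id3, 0.69 for Atoh8, 0.68 for Id2, and 0.54 for Id1 and for Smad7. Inside the groups the values were 0.14 for Id3, 0.60 for Atoh8, 0.20 for Id2, 0.06 for Id1 and -0.07 for Smad7. For Id1, Id2, Id3 and Smad7 the likeness thus came mainly from the group means. Tfrc ran opposite to Hamp over all arrays (r = -0.50) and not inside the groups (r = 0.05).

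The state of the arrays bears on these values as follows. Per array the 75th percentile was 782 to 1354 units of intensity, and 62.8% to 69.5% of probes were well above background. Hepatocyte markers (10 of 10 measured) averaged 6.92 to 7.32 with HFHS vehicle, 7.28 to 7.39 with ST vehicle and 7.15 to 7.32 with ST pollutants, and Kupffer cell markers averaged 2.28 to 3.12 on every array. HFHS vehicle replicates 3, 4 and 5 carried pancreatic acinar transcripts (mean of the 10 markers measured, of 14, at 4.63, 3.39 and 6.78, against -3.11 to -1.73 on the other 10 arrays). Muscle markers (4 of 6 measured) ranged from -5.28 to 1.04 with HFHS vehicle, from -3.23 to 0.55 with ST vehicle and from -2.58 to 1.30 with ST pollutants. HFHS vehicle replicate 3 and ST pollutants replicate 2, the lowest of their groups in Hamp, were at 1.04 and 1.16. ST pollutants replicates 1 and 4, with Hamp at 4.78 and 4.66, were at 1.25 and 1.30. ST vehicle replicate 1, with Hamp at 6.32, was at 0.55. Adipocyte markers (5 of 6 measured) were highest on ST pollutants replicate 2, at -0.93 against -4.82 to -2.43 elsewhere. Cholangiocyte markers (5 of 6 measured) ranged from -2.85 to -2.55 with HFHS vehicle, below the -2.15 to -2.10 of ST vehicle, and from -2.66 to -1.83 with ST pollutants. The part of these cells in the values of Hamp and the other members was not tested. Leaving out the 3 arrays of slide 1 left 1, 3 and 1 genes called of all genes in the 3 comparisons, and 0 members.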

How the data were processed

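Total liver RNA (0.1 ug per labelling, Trizol extraction) was hybridized to Agilent arrays. The authors extracted a linear intensity for every spot in Agilent Feature Extraction 11.5.1.1, per the file headers; probe positions are on mm9. A deposited table of log2 values (26082 probes; limma, per the submitters' processing notes) served only as an alternative, and each of its 13 columns matched its own array best.

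The processed signal of 39429 probes was log2-transformed, with outlier spots missing, averaged per probe and reduced by the 75th percentile of the array. A probe was kept if some group had it well above background on all its arrays (25028 probes), and the probe of highest mean stood for its gene. limma 3.58.1 in R 4.3.3 fitted 1 model of 3 groups to all 13 arrays (two-sided contrasts, Benjamini-Hochberg over 19517 genes, threshold 0.05). The fit was tested on simulated data. Errors of differences are standard errors. The small number of arrays, above all the 3 ST vehicle arrays, limits the precision.

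Members and lists were chosen with earlier results of these data known. Genes named from a list are those called, or otherwise the 2 of smallest p, with other list genes named for their role after their values were seen, as was Cp. Genes like Hamp are the 5 of highest Pearson r, before and after subtracting group means. Alternatives were other background corrections, scalings, filters, probe rules, blocks for slide or replicate number, and samples left out. Promoter sequences are RefSeq's (GRCm38.p6); Hfe2, Trf, Slc40a1 and Tmprss6 were not matched.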

Additional observations from a re-analysis of the deposited data

Results flagged for a closer look

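HFHS vehicle and ST pollutants are both compared with ST vehicle, and 3 of the genes described above differed between these 2 effects by a test of the difference itself in limma. Tmprss6 was higher by 0.31 with HFHS vehicle than with ST pollutants and was called in 10 of 26 alternatives. Ireb2 differed by -0.56 and Il6ra by -0.76 in the same comparison, each lower with HFHS vehicle. The call of Ireb2 held in 20 of 25 alternatives, and its difference turned to 0.07 with normexp background correction. That of Il6ra held in 24 of 25. The 2 groups did not overlap in these 3 genes, so the sign on each slide was fixed beforehand. In 20 groups of 5 arrays, no member had an array far enough from the others to be set apart by Dixon's criterion.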

How the results depend on the processing

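The 3 ST vehicle arrays and the small number of arrays per slide limit all comparisons, and signal over background limits the dim genes Tfrc, Ireb2 and Bmp6. Of 780 member differences over the alternatives, 61 changed sign, none of them called. With HFHS vehicle against ST vehicle, 0 members were called under any of the 26 alternatives. With ST pollutants against ST vehicle, 1 member was called with quantile normalization (Tmprss6, adjusted p = 0.0339), with probes well above background on all arrays (0.0494) and with the authors' deposited values (0.0365), and 0 or 1 when an array was left out. Between HFHS vehicle and ST pollutants the call of Tmprss6 was lost, leaving 0, with normexp background correction, arrays centred on the median, no filter on dim probes, slide as a block (adjusted p = 0.0675), without HFHS vehicle replicates 3, 4 and 5 and without slide 1, and it was 0 or 1 when an array was left out.

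Counts over all genes moved more. With HFHS vehicle against ST vehicle (134) they were 45 with normexp background correction, 68 with median centring, 55 with no filter, 25 with only the 2 groups compared, 84 with slide as a block, 4 without HFHS vehicle replicates 3, 4 and 5, 1 without slide 1, and 23 to 140 when an array was left out. With ST pollutants against ST vehicle (192) they were 22, 48, 70, 40, 67, 92 and 3 in the same order, and 39 to 175. Between HFHS vehicle and ST pollutants (756) they were 292 with normexp background correction, 323 with median centring, 361 with no filter, 289 without HFHS vehicle replicates 3, 4 and 5, 1 without slide 1, and 349 to 712. The cause was not tested. Same-numbered samples correlated from -0.17 to 0.56 in their deviations from the group means (8 of 11 pairs over 0.1). Of 13 samples, 6 correlated best with their own number. Most same-numbered samples also share a slide, so number and slide cannot be told apart there. ST vehicle replicate 3, on slide 5, does not, and it correlated at -0.15 and -0.17 with its same-numbered samples. Samples of one slide correlated from -0.02 to 0.56 (10 of 11 pairs over 0.1). With the replicate block 53, 44 and 563 genes were called, and 0, 0 and 0 members, Tmprss6 being at an adjusted p of 0.0835.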
